A study of Homo sapiens with 6 samples.

Results

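Some m6A peaks of U2OS cells were annotated by the authors with both ends of a coding region, the 5′ UTR on one side and the stop codon on the other. They were collected by taking every peak whose annotation terms included both 5′ UTR and stop codon, and they are called dual-annotated peaks here. The rule gave 1124 of 13147 peaks with DF2 siRNA 1, 1107 of 13310 peaks with DF2 siRNA 2 and 1265 of 15272 peaks with control siRNA, 3496 of 41729 in all. They lay in 1098 genes with siRNA 1 and 1072 genes with siRNA 2, against 1224 genes in control. Annotation, and no value of enrichment, chose them, out of peaks that all had an FDR under 0.05. Their position was partly set by the rule. Their width, their strength within that limit and their presence in each list were free to vary, apart from the room that a peak needs to touch both features.

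The peaks come from U2OS, an established human bone osteosarcoma cell line. Cells received DF2 siRNA 1 or DF2 siRNA 2, both against YTHDF2 (DF2), or a control siRNA, and all were otherwise wild type. Cytoplasmic RNA was broken to fragments averaging about 100 nt and the m6A-bearing pieces were pulled down with a SYSY antibody against m6A (m6A-IP), beside input RNA. There were 6 libraries, 1 m6A-IP and 1 input for each condition, and 1 merged peak list per condition carries the data. The lists covered 9.12 Mb with siRNA 1 and 10.1 Mb with siRNA 2, against 12.1 Mb in control, and the dual-annotated peaks made up 1.17 Mb, 1.28 Mb and 1.61 Mb of them in that order. Without a second list per condition no difference between conditions could be set against replicate error, so no test was made. Intervals in parentheses are 95% exact binomial (Clopper-Pearson) intervals that cover counting error only, the read depth behind a peak is unknown, and a peak list does not measure how much of an RNA is present.

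N6-methyladenosine (m6A) is the most common internal mark of eukaryotic messenger RNA. It is placed by the METTL3 and METTL14 complex on adenosines in a short consensus around GGAC, and it is known for its concentration near stop codons and in long internal exons. YTHDF2 is a cytoplasmic reader that binds m6A and brings deadenylases to the bound RNA. A peak from fragmented RNA marks a neighbourhood and not a base, so a dual-annotated peak can hold 1 wide enriched stretch, several pieces joined across introns, or a short stretch where transcripts of a gene, or overlapping genes, place a 5′ UTR and a stop codon close together.

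The start of such a peak can be seen in sequence for genes where it covers the first bases of the RefSeq gene. Of the 1650 genes with a dual-annotated peak in at least 1 list, 1307 were found in the RefSeq table of gene starts (GRCh38.p14). The 6 stretches below were shown because each lies wholly inside a dual-annotated peak of all 3 lists and holds GGAC, the core of the m6A consensus, in capitals within the first 50 bases of the gene. They belong to the genes with the strongest peaks that met these conditions. All are written 5′ to 3′ on the gene's strand.
CHMP1B, chr18:11851427-11851456, plus strand: ggcggccgggagcGGACttaccttaccttc
SLC39A7, chr6:33200878-33200907, plus strand: ggatctaaaggcgGGACtgccacgtccaag
RBM15, chr1:110339397-110339426, plus strand: aattggccaatgaGGACtgcggggcgGGAC
FJX1, chr11:35618472-35618501, plus strand: cgggcggagcgccGGACagagccccgcagc
PLK2, chr5:58460057-58460086, minus strand: gcacaagtGGACcggggtgttgggtgctag
CDKN2B, chr9:22009261-22009290, minus strand: ggcggggcagtgaGGACtccgcgacgcgtc

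The peaks around these stretches had nearly the same extent in the 3 lists. The CHMP1B peak, over a gene for a subunit of the ESCRT-III membrane-cutting machinery, covered 1000 bases with siRNA 1 and 1000 bases with siRNA 2, against 1200 bases in control. SLC39A7, which encodes a zinc transporter of the secretory pathway, had 1200 bases covered in each list. The peak of RBM15, an adaptor of the m6A methyltransferase complex, covered 3000 bases with siRNA 1 and 3200 bases with siRNA 2, against 3400 bases in control. PLK2, a polo-like kinase, had 600 bases covered in each list, and CDKN2B, an inhibitor of cyclin-dependent kinases CDK4 and CDK6, had 2000 bases covered in each list.

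The motif was about as frequent at the starts of these genes as at gene starts in general, within the intervals. GGAC on the sense strand stood in the first 50 bases of 20.4% (16.4 to 24.9) of 368 genes whose start lay under a siRNA 1 dual-annotated peak. The share was 21.4% (17.1 to 26.2) of 332 genes with siRNA 2 and 19.9% (15.8 to 24.5) of 337 genes in control, against 19.7% of all 15843 protein-coding genes of the table. On the opposite strand of the same starts it stood in 17.9%, 18.4% and 20.2% of genes for siRNA 1, siRNA 2 and control, beside 19.2% of all protein-coding genes. Genes with another 5′ UTR peak over their start held sense GGAC in 23.5% with siRNA 1, 25.0% with siRNA 2 and 23.3% in control. The first base of the gene was A in 53.5% (48.3 to 58.7) of dual-annotated starts with siRNA 1, 55.1% (49.6 to 60.6) with siRNA 2 and 50.1% (44.7 to 55.6) in control, beside 50.7% of all protein-coding genes. A match is only a description of these letters, and the rest of each peak was not searched.

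The share of dual-annotated peaks was similar in the 3 deposited lists. It was 8.55% (8.08 to 9.04) with siRNA 1 and 8.32% (7.85 to 8.80) with siRNA 2, against 8.28% (7.85 to 8.73) in control. Among the 13147 top-scoring peaks of each list it was 8.55% with siRNA 1 and 8.38% with siRNA 2, against 9.42% in control. Seen from the stop codon, they were 19.7% (18.6 to 20.7) of all peaks touching one with siRNA 1 and 19.1% (18.0 to 20.1) with siRNA 2, against 19.3% (18.3 to 20.3) in control. Seen from the 5′ UTR, they were 30.5% (29.1 to 32.1) of all peaks touching one with siRNA 1 and 32.7% (31.1 to 34.3) with siRNA 2, against 35.6% (34.0 to 37.2) in control. Only the last share had intervals for siRNA 1 and control that did not meet.

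All dual-annotated peaks also touched coding sequence, as did 99.7%, 99.6% and 99.5% of stop codon peaks without 5′ UTR (siRNA 1, siRNA 2, control). The 3′ UTR was part of 52.1% (49.2 to 55.1) of them with siRNA 1 and 56.2% (53.2 to 59.1) with siRNA 2, against 60.2% (57.4 to 62.9) in control. Stop codon peaks without 5′ UTR reached the 3′ UTR far more often, in 91.2% with siRNA 1, 92.0% with siRNA 2 and 92.8% in control. A non-coding RNA annotation accompanied 1.25% of dual-annotated peaks with siRNA 1, 1.99% with siRNA 2 and 2.06% in control. In each list 7.30%, 7.68% and 7.59% of them (siRNA 1, siRNA 2, control) shared bases with another dual-annotated peak of the same list that was given under a different gene or entry, so they are not all separate stretches of RNA.

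They were wide peaks. The median covered width, summed over the blocks of a peak, was 800 bases with siRNA 1 and 1000 bases with siRNA 2, against 1200 bases in control. Stop codon peaks without 5′ UTR had medians of 600, 800 and 800 bases in the same order, and peaks with 5′ UTR and coding sequence but no stop codon had 400, 600 and 600 bases. The median over all peaks was 600 bases in each list. From the first to the last base, introns included, the dual-annotated peaks ran over a median of 2344 bases with siRNA 1 and 2755 bases with siRNA 2, against 4120 bases in control. A single uninterrupted piece made up 30.7% (28.0 to 33.5) of them with siRNA 1, 29.0% (26.3 to 31.8) with siRNA 2 and 25.1% (22.7 to 27.5) in control, where stop codon peaks without 5′ UTR were in 1 piece in 57.8%, 54.9% and 48.5%.

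**Figure D1:**
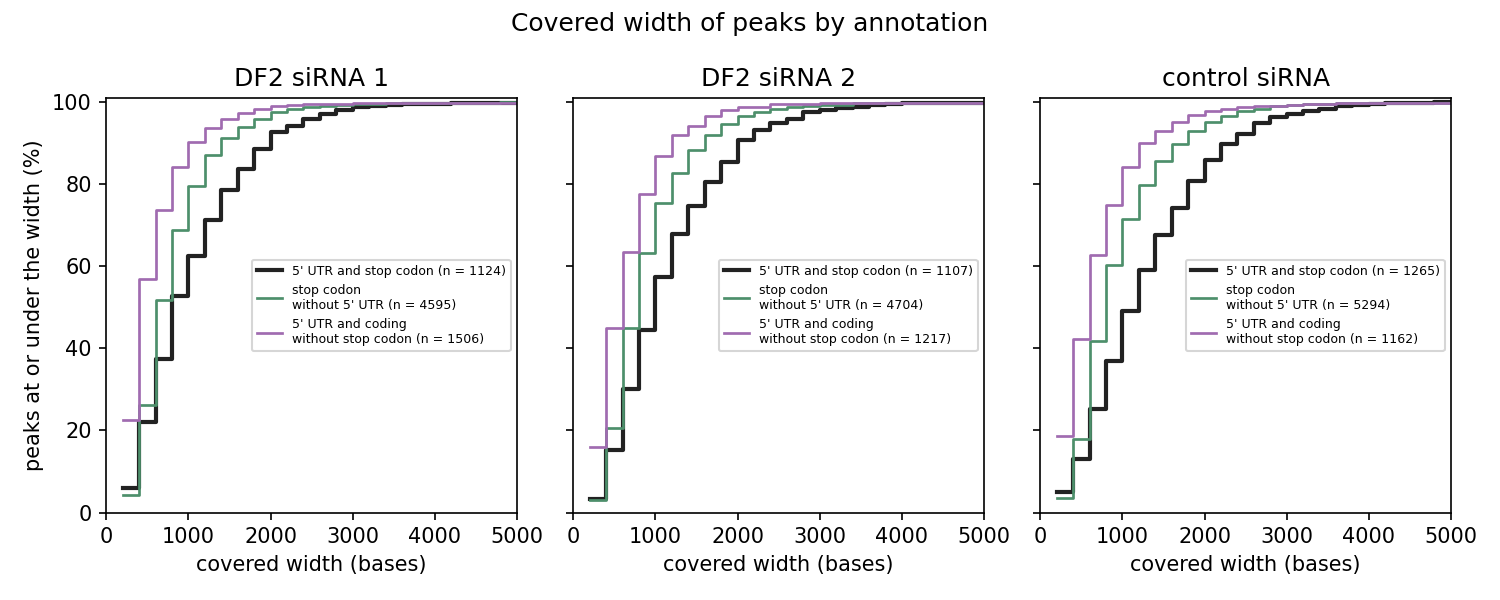
The share of peaks (vertical axis, %) at or under each covered width (horizontal axis, bases) is drawn for dual-annotated peaks, stop codon peaks without 5′ UTR, and peaks with 5′ UTR and coding sequence but no stop codon, with 1 panel per list. In each panel the dual-annotated line lies lowest between 600 and 3000 bases, and its median falls at 800 bases with siRNA 1, 1000 bases with siRNA 2 and 1200 bases in control.

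A minority were very narrow. Covered widths of 200 bases or less were found for 68 of them, 6.05% (4.73 to 7.61), with siRNA 1 and 37, 3.34% (2.36 to 4.58), with siRNA 2, against 62, 4.90% (3.78 to 6.24), in control. Such widths were more common over the whole lists, at 14.0%, 11.8% and 14.4%. Of the narrow dual-annotated peaks, 42 with siRNA 1, 19 with siRNA 2 and 40 in control were 1 uninterrupted piece. An example is RPS15, a protein of the small ribosomal subunit on chromosome 19, whose peak filled the same 200 bases from 1438358 to 1438557 in all 3 lists. TPP1, a lysosomal peptidase on the minus strand of chromosome 11, had a peak of 200 bases from 6619262 to 6619461 in all 3 lists, which is 2.42% of its RefSeq gene. NTHL1, a DNA glycosylase of base excision repair, and TRIAP1, a small mitochondrial lipid-transfer protein, likewise kept a 200-base peak in each list. Which transcript put a 5′ UTR beside a stop codon in these genes was not analysed here.

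The widest of these peaks ran to several kilobases. ZNF646, a zinc finger gene on chromosome 16, had an uninterrupted peak of 5600 bases with siRNA 1 and 3800 bases with siRNA 2, against 3800 bases in control. FAT1, a giant cadherin, had 3800 bases covered in each list, and UTP14C, a ribosome biogenesis factor, had 3600 bases covered in each list. AHNAK2, a very large scaffold protein on the minus strand of chromosome 14, differed most among the wide peaks, with 1400 bases covered with siRNA 1 and 14800 bases with siRNA 2, against 1600 bases in control. These 3 AHNAK2 peaks were 1 piece with the 5′ end at 104955014, and their 3′ ends lay at 104953615 with siRNA 1 and 104940215 with siRNA 2, against 104953415 in control. The gene had 3 peaks with siRNA 1, 2 with siRNA 2 and 3 in control, and only the dual-annotated one is described.

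The genes that carried dual-annotated peaks were short. Their RefSeq gene span, introns included, had a median of 17568 bases with siRNA 1 and 18484 bases with siRNA 2, against 23046 bases in control, whereas genes under stop codon peaks without 5′ UTR had medians of 33416, 35336 and 39344 bases. The span of the peak took up a median of 18.7% of the gene with siRNA 1 and 21.6% with siRNA 2, against 25.5% in control. Stop codon peaks without 5′ UTR took up 3.80%, 4.25% and 4.76%. At least 50% of the gene lay within the span of 23.5% (21.0 to 26.2) of dual-annotated peaks with siRNA 1 and 26.2% (23.6 to 29.0) with siRNA 2, against 31.1% (28.5 to 33.8) in control. The rule itself favours short genes, where little lies between the 5′ UTR and the stop codon.

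Set against the RefSeq gene, few of the peaks ran from end to end. Of those placed at their gene (1063 with siRNA 1, 1041 with siRNA 2 and 1194 in control), 10.3% (8.58 to 12.3), 10.7% (8.85 to 12.7) and 10.6% (8.87 to 12.4) came within 1000 bases of both the gene's start and its end. Only the start was reached by 40.5% with siRNA 1, 39.9% with siRNA 2 and 37.5% in control, and only the end by 7.62%, 8.26% and 8.46%. Neither was reached by 41.5% (38.5 to 44.5) with siRNA 1 and 41.2% (38.2 to 44.3) with siRNA 2, against 43.5% (40.6 to 46.3) in control. Peaks that reached both ends lay in genes of median span 2248 bases with siRNA 1, 2460 bases with siRNA 2 and 2702 bases in control. Those that reached neither lay in genes of median span 36672, 39827 and 44738 bases.

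**Figure D2:**
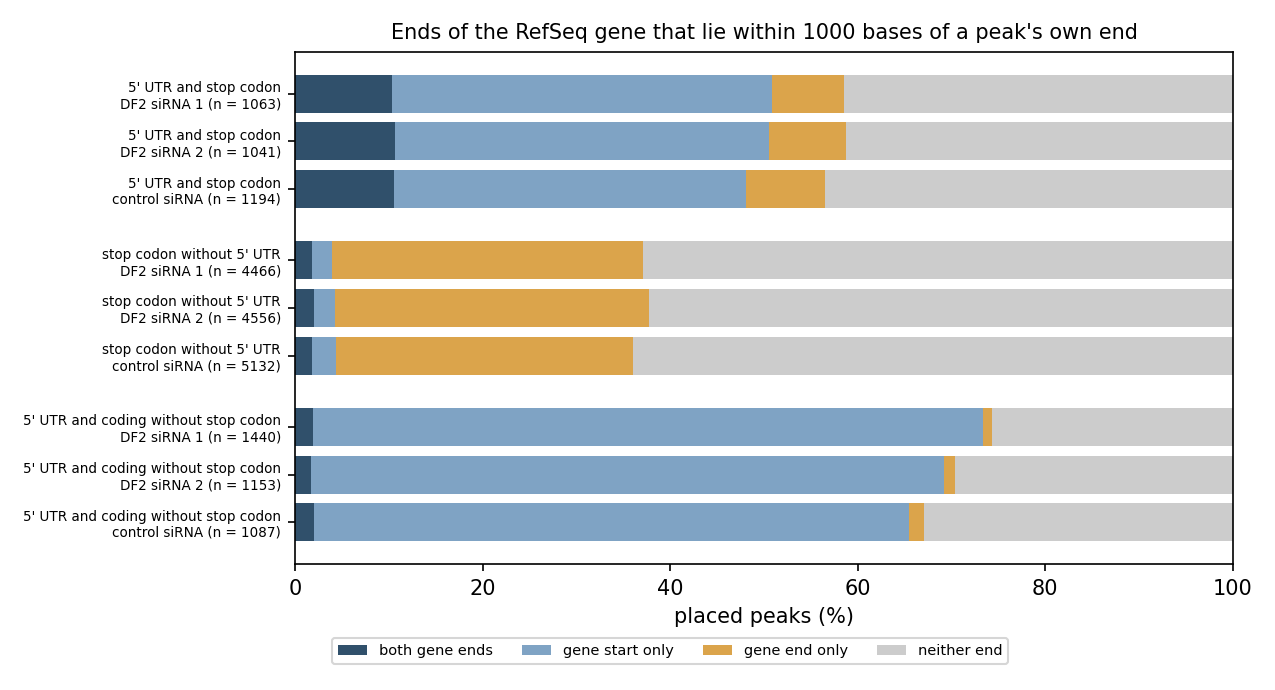
Bars show the share of placed peaks (horizontal axis, %) whose own ends lie within 1000 bases of both ends of the RefSeq gene, of its start, of its end, or of neither, for each annotation class in each list. About 10.3% to 10.7% of dual-annotated peaks reach both ends. Stop codon peaks without 5′ UTR seldom reach the start, which their definition favours.

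By the authors' score, dual-annotated peaks ranked above most of their own list. Their median percentile was 68.0 with siRNA 1 and 69.3 with siRNA 2, against 69.4 in control, close to the 65.3, 65.8 and 68.3 of stop codon peaks without 5′ UTR and above the 48.8, 53.3 and 53.3 of peaks with 5′ UTR and coding sequence alone. The authors' fold enrichment had medians of 24.3 with siRNA 1, 31.2 with siRNA 2 and 35.0 in control, where stop codon peaks without 5′ UTR had 22.5, 26.6 and 28.1. An FDR of 0.01 or more, the weakest end of the lists, was given to 7.92% (6.41 to 9.65) of dual-annotated peaks with siRNA 1 and 7.77% (6.26 to 9.51) with siRNA 2, against 8.14% (6.69 to 9.79) in control. Strength and width went together among them. The median percentile was 38.6 for peaks of up to 400 bases and 89.8 for peaks over 2000 bases with siRNA 1, with 41.3 and 84.6 for siRNA 2 and 42.9 and 77.7 in control. Score and fold are the authors' values and rank a peak within its own list, so they are not read here as a change between lists.

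Most dual-annotated peaks had a peak at the same place in the other lists. Of the siRNA 1 peaks, 173 of 1124, 15.4% (13.3 to 17.6), overlapped no control peak, beside 18.5% of all siRNA 1 peaks. Of the siRNA 2 peaks, 77 of 1107, 6.96% (5.53 to 8.62), overlapped no control peak, beside 13.9% of all siRNA 2 peaks. In the other direction, 182 of 1265 control peaks, 14.4% (12.5 to 16.4), overlapped no siRNA 1 peak, beside 32.9% of all control peaks, and 149, 11.8% (10.1 to 13.7), overlapped no siRNA 2 peak, beside 26.6% of all control peaks. Between the siRNA lists, 10.4% (8.68 to 12.3) of siRNA 1 peaks overlapped no siRNA 2 peak, beside 16.4% of that list, and 6.59% (5.20 to 8.22) of siRNA 2 peaks overlapped no siRNA 1 peak, beside 19.5% of that list. All 6 shares were thus below the share over the whole list, as they also were for stop codon peaks without 5′ UTR. Dual-annotated peaks with no partner were narrow and weak, with a median width of 400 bases and a median percentile of 38.6 for siRNA 1 peaks absent from control, and of 600 bases and 32.3 for control peaks absent with siRNA 1.

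Keeping the same pair of annotations was less common than keeping a peak. The overlapping control peak was itself dual-annotated for 69.0% (66.2 to 71.7) of siRNA 1 peaks and 78.5% (76.0 to 80.9) of siRNA 2 peaks. Looked up the other way, 61.3% (58.6 to 64.0) of control peaks met a dual-annotated siRNA 1 peak and 68.4% (65.7 to 70.9) met a dual-annotated siRNA 2 peak. The siRNA lists met each other at 76.2% (73.6 to 78.7) of siRNA 1 peaks and 77.2% (74.6 to 79.7) of siRNA 2 peaks. Stop codon peaks without 5′ UTR kept their class more often, for example in 81.5% (80.4 to 82.6) of siRNA 1 peaks looked up in control and 70.2% (68.9 to 71.4) of control peaks looked up with siRNA 1.

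Where a peak was kept without the pair, most often 1 of the 2 terms was missing. With siRNA 1, the place of 148 control peaks held a stop codon peak without 5′ UTR, that of 80 a 5′ UTR peak without stop codon, that of 39 a separate peak for each, and that of 40 a peak with neither. The median covered width of the 148 was 1400 bases. Of the 123 among them that met exactly 1 siRNA 1 peak, 120 were narrower in the siRNA 1 list. With siRNA 2, the place of 125 control peaks held a stop codon peak without 5′ UTR, and of the 108 that met exactly 1 such peak, 104 were narrower in the siRNA 2 list. The reverse also occurred. The place of 80 siRNA 1 peaks held a control stop codon peak without 5′ UTR and that of 73 a control 5′ UTR peak without stop codon, and 61 of the 79 in the first set that met exactly 1 control peak were narrower in control. Peaks that lacked 1 of the 2 terms were mostly the narrower ones, in either direction. The choice itself favours this, because a peak that touches both features needs more room, so nothing further is read from these counts.

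**Figure D3:**
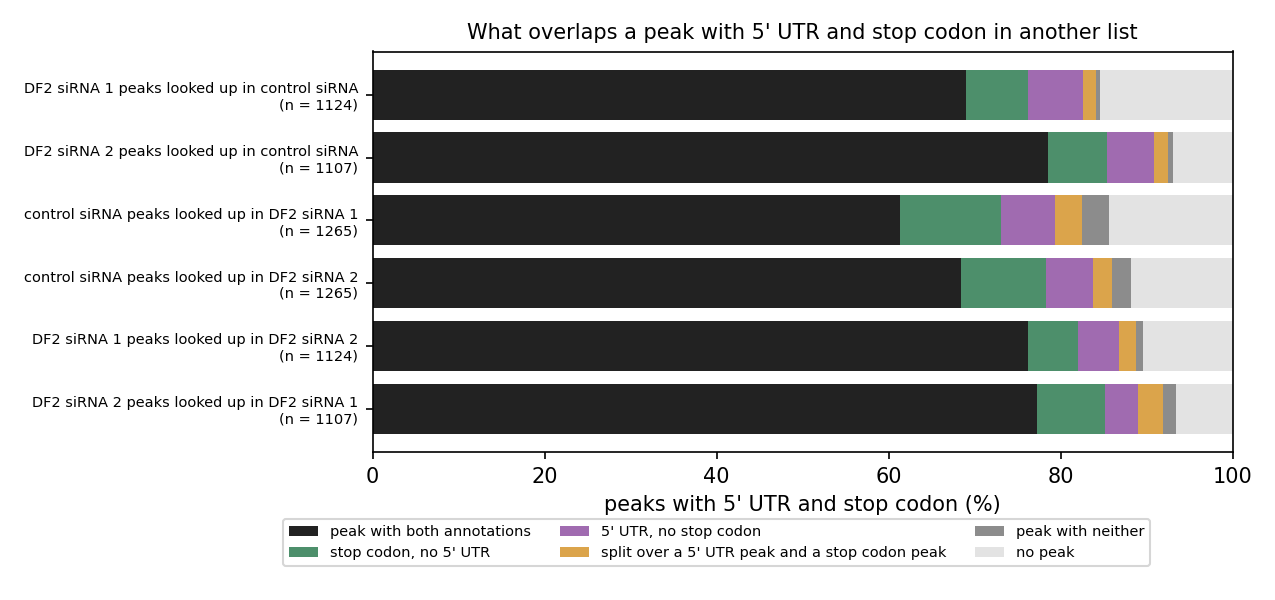
Each bar takes the dual-annotated peaks of 1 list and shows the share (horizontal axis, %) that meets, in another list, a dual-annotated peak, a peak with only one of the annotations, a separate peak for each, a peak with neither, or no peak. The first segment spans 61.3% for control peaks looked up with siRNA 1 to 78.5% for siRNA 2 peaks looked up in control.

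The extent of single peaks could be followed at 512 places where each list had exactly 1 dual-annotated peak and no other. The covered width was the same in all 3 lists at 210 of them, 41.0%. Between siRNA 1 and control it was equal at 252 places, narrower with siRNA 1 at 203 (39.6%) and wider with siRNA 1 at 57 (11.1%). Between siRNA 2 and control it was equal at 306, narrower with siRNA 2 at 143 (27.9%) and wider with siRNA 2 at 63 (12.3%). The median width over these places was 1000 bases with siRNA 1 and 1000 bases with siRNA 2, against 1200 bases in control. The 5′ end of the peak was the same base with siRNA 1 as in control at 73.8% of places and the 3′ end at 62.5%, and with siRNA 2 as in control at 79.9% and 71.9%.

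Narrower siRNA peaks were not particular to these places. At 2878 places with exactly 1 stop codon peak without 5′ UTR in each list, the siRNA 1 peak was narrower than control at 42.5% and wider at 13.0%, and the siRNA 2 peak was narrower at 33.4% and wider at 14.8%. The siRNA 1 peak was also narrower than the siRNA 2 peak at 134 of the 512 dual-annotated places and wider at 61. The 3 lists differed in their number of peaks and in the bases they cover, and the part of read depth in these widths was not tested.

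Dual-annotated peaks lay in 13.1% of all genes with a siRNA 1 peak and 12.5% of those with a siRNA 2 peak, against 12.8% of those with a control peak. Of the 1650 genes with one in any list, 694, 42.1%, had one in all 3 lists. Both siRNA lists and not control held such a peak for 144 genes, 8.73%. Control alone held one for 318 genes, 19.3%, siRNA 1 alone for 192 genes, 11.6%, and siRNA 2 alone for 90 genes, 5.45%. When only the top 50% of peaks by score were kept, 90 genes had one with each siRNA but not in control, and siRNA 1 alone held one for 114 genes. The remaining 144 and 68 genes had one in control and in only siRNA 2 or only siRNA 1. Stop codon peaks without 5′ UTR, counted the same way over 5725 genes, gave 6.45% in both siRNA lists and not control. In control alone they gave 14.1%, in siRNA 1 alone 5.96% and in siRNA 2 alone 4.28%. For any kind of peak, 3.54% of 10825 genes had one with each siRNA but none in control, and 12.0% in control alone. That last count asks that no peak of any kind be left in the other lists, so it is a stricter measure.

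Most of these genes kept a peak of some kind. Of the 144 genes dual-annotated with each siRNA but not in control, 123 had another control peak and 21 had none. Of the 318 genes with one in control alone, 241 had another peak in both siRNA lists and 48 had none in either. The 42.1% held in all 3 lists was below the 56.4% of 5725 genes that had a stop codon peak without 5′ UTR in any list. The control list enters both comparisons with siRNA, so its gains and losses are not independent.

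**Figure D4:**
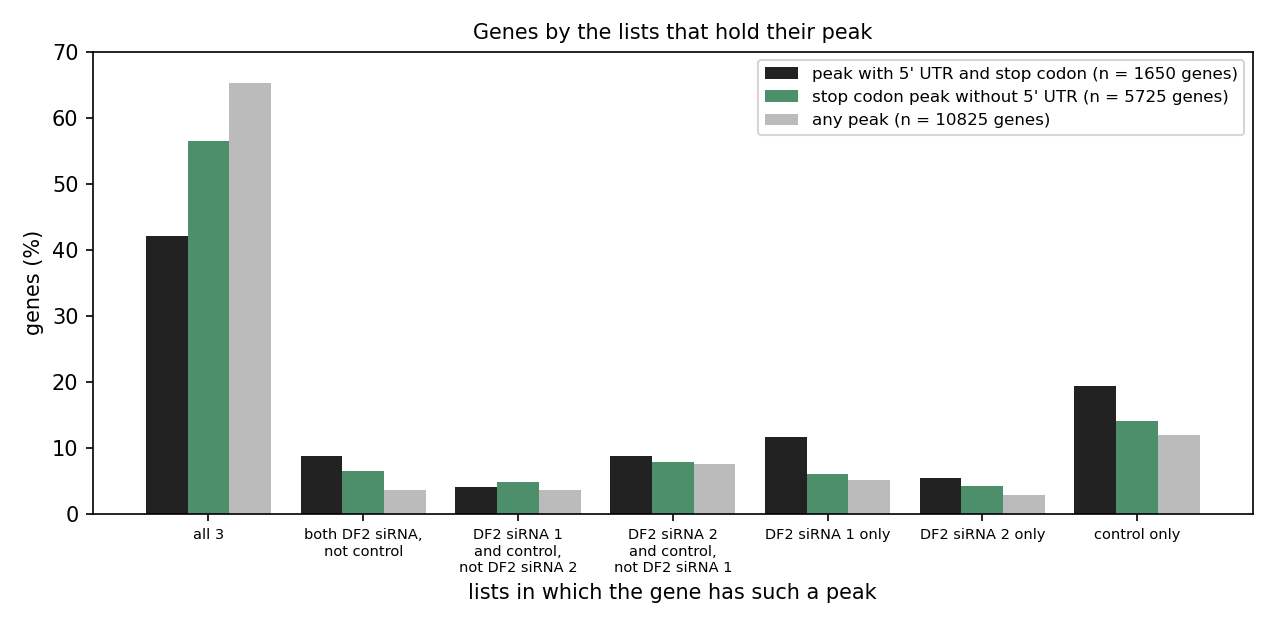
Bars give the share of genes (vertical axis, %) whose peak is found in all 3 lists, in 2 of them or in 1, for dual-annotated peaks, for stop codon peaks without 5′ UTR and for any peak. Dual-annotated peaks have the lowest share in all 3 lists, 42.1%, and the highest in control alone, 19.3%.

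The genes named next were the strongest by mean score percentile among those with a dual-annotated peak in all 3 lists. Their presence in all 3 lists was set by this choice. BASP1, a membrane-bound protein abundant in nerve growth cones, led by mean score percentile, with a peak on the plus strand of chromosome 5 that covered 1800 bases with siRNA 1 and 1200 bases with siRNA 2, against 1800 bases in control. PRSS23, a secreted serine protease, had the same 1600 bases in 2 pieces in each list, from 86800503 to 86809081 on the plus strand of chromosome 11. DAG1 encodes dystroglycan, which ties the cytoskeleton to laminin, and its peak covered 3400 bases with siRNA 1 and 3400 bases with siRNA 2, against 1400 bases in control. GPRC5A, an orphan receptor induced by retinoic acid, had 1400 bases covered with siRNA 1 and 1400 bases with siRNA 2, against 1600 bases in control.

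The peak of RHOB, an actin-regulating GTPase encoded without introns, covered 1800 bases with siRNA 1 and 2000 bases with siRNA 2, against 2000 bases in control, from base 20447074 of chromosome 2 in each list. That is 76.0% of the RefSeq gene with siRNA 1 and 84.5% in the other lists. LRFN4, a leucine-rich adhesion protein, had 2800 bases covered with siRNA 1 and 2800 bases with siRNA 2, against 2200 bases in control, and the authors' fold of its peak was 453, 206 and 100.0 in the same order. PTP4A1, a small protein tyrosine phosphatase, had the same 400 bases covered in each list, and MORF4L2, a chromatin protein of the NuA4 complex, the same 600 bases. HNRNPF, a splicing regulator, had 1400 bases covered with siRNA 1 and 1200 bases with siRNA 2, against 1400 bases in control. Extent in these genes thus ran either way between lists, with DAG1 and LRFN4 wider in both siRNA lists than in control.

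Among genes dual-annotated with each siRNA but not in control, 8 were named by their mean score percentile. Of these 8, 7 had a control peak without one of the 2 terms. TMEM115, a Golgi membrane protein, had 2197 bases covered in 2 pieces over the whole RefSeq gene with siRNA 1 and siRNA 2. In control the higher-scoring of its 2 peaks covered 797 bases around the stop codon. For CITED4, a transcriptional coactivator, the peak covered 1200 bases with siRNA 1 and 1000 bases with siRNA 2, against 800 bases without the 5′ UTR in control. NACC1, a BTB-domain transcriptional regulator, had 1000 bases in 3 pieces with siRNA 1 and siRNA 2, against 800 bases with the stop codon alone in control. In IRF2BP2, a transcriptional corepressor, and IMP3, a component of the U3 small nucleolar ribonucleoprotein, the control peak kept the stop codon and lacked the 5′ UTR as well. For IRF2BP2 this was the higher-scoring of 2 control peaks.

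The other 3 genes differed in another way. In TUBB, a beta-tubulin, the control peak held the 5′ UTR and not the stop codon, with 1200 bases covered with siRNA 1 and with siRNA 2, against 1000 bases in control. RPL36AL, a ribosomal protein, had a control peak of 746 bases that was wider than its 600 bases with either siRNA, and it was annotated with 5′ UTR, coding sequence and 3′ UTR but no stop codon. FTH1, the ferritin heavy chain, had the same 400 bases with siRNA 1 and siRNA 2, and no peak in control. FTH1, TUBB and RPL36AL belong to families with near-identical copies or pseudogenes, so their values are uncertain where reads could be split between copies.

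The 8 highest-scoring genes with a dual-annotated peak in control alone all had other peaks in both siRNA lists. One of them was YTHDF2 itself, on the plus strand of chromosome 1, where the 5′ UTR piece was missing from both siRNA lists. The peak covered 1600 bases with siRNA 1 and 1600 bases with siRNA 2, against 2000 bases in control. It was in 2 pieces with either siRNA and 3 pieces in control. The control peak also ended further 3′, at 28769316 against 28769116 with either siRNA. A peak list does not show how far the siRNAs lowered YTHDF2 RNA. DEGS1, the desaturase of ceramide synthesis, had 1000 bases covered with siRNA 1 and 600 bases with siRNA 2, against 2000 bases in 5 pieces over 96.9% of the gene in control. DENND5B, an exchange factor for RAB GTPases, had 1000 bases covered with siRNA 1 and 1000 bases with siRNA 2, against 2000 bases in 7 pieces in control. DEGS1 and DENND5B had further peaks in both siRNA lists, and only the highest-scoring one per siRNA list is given.

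SLC39A10, a zinc importer, had 1000 bases of coding sequence, stop codon and 3′ UTR covered with siRNA 1 and with siRNA 2, against 1400 bases in 5 pieces in control. In COA7, a cytochrome c oxidase assembly factor, the peak described covered 1000 bases with siRNA 1 and 1200 bases with siRNA 2, against 2000 bases in control. Neither of these siRNA peaks held the stop codon, and the other siRNA 2 peak of the gene is not described. For ADAR, an adenosine deaminase acting on double-stranded RNA, the strongest siRNA 2 peak covered 1800 bases of 5′ UTR and coding sequence, against 2200 bases with the stop codon in control, and the strongest siRNA 1 peak lay elsewhere in the gene, over 400 bases at the stop codon. In the peaks described, the missing end thus varied from gene to gene.

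**Figure D5:**
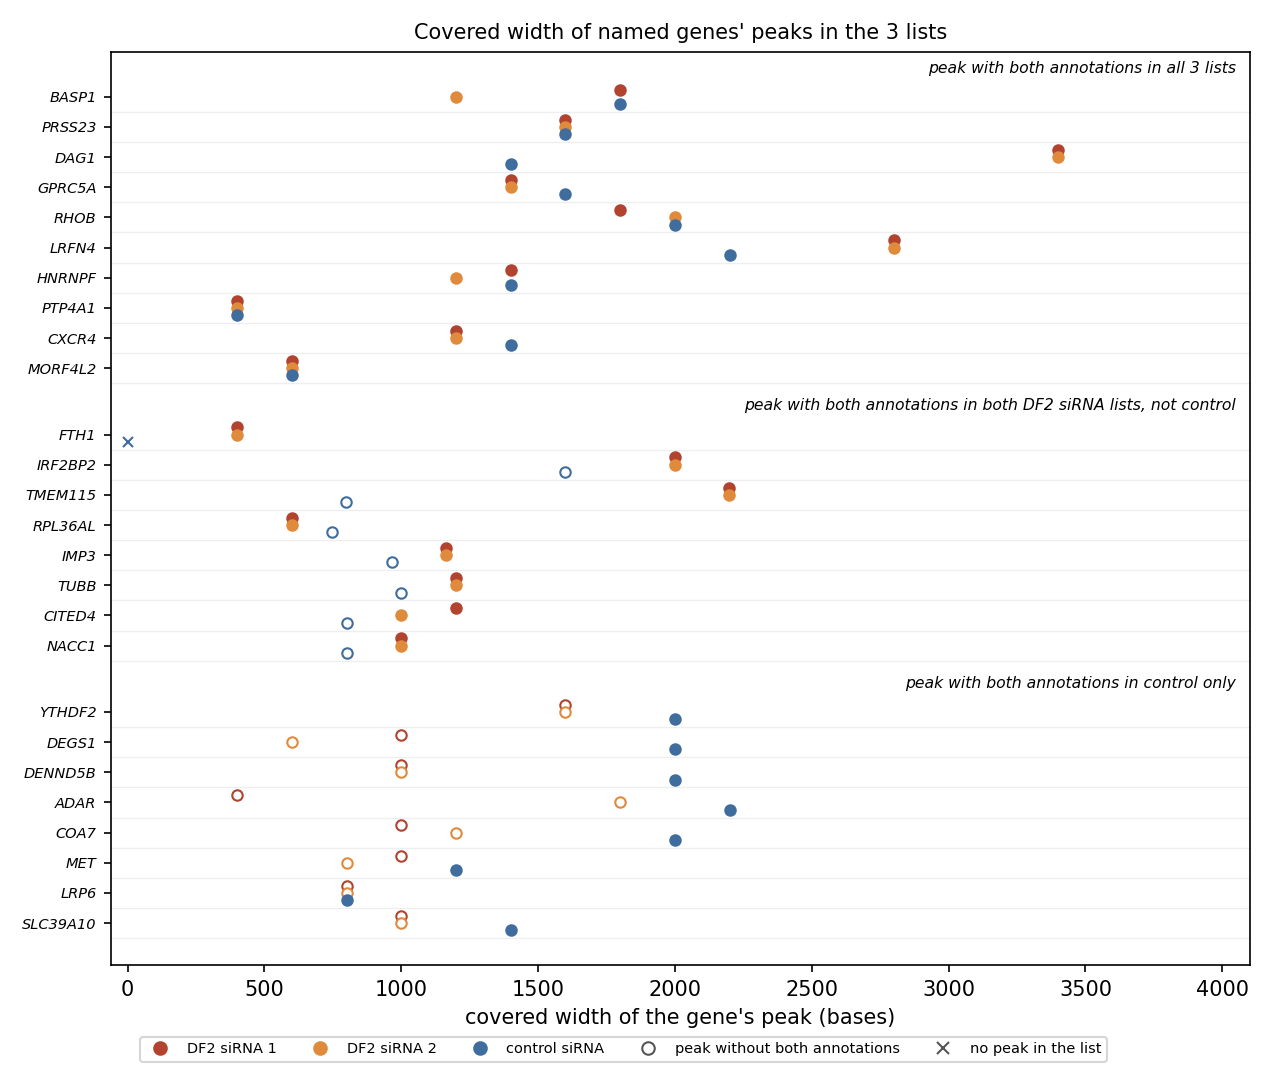
Points give the covered width (horizontal axis, bases) of the peak of each named gene with siRNA 1, siRNA 2 and control siRNA, filled where the peak is dual-annotated, open where it is not (the gene's highest-scoring peak is then drawn), and a cross where the list has no peak in the gene. In the lower group the filled control points lie at or to the right of the open siRNA points, and in the middle group the open control points lie left of the filled ones except in RPL36AL, and FTH1 has no control peak.

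Among the proteins that write and read m6A, 3 of the 27 with any peak had a dual-annotated one, beside 1650 of 10825 genes (15.2%). RBM15 had one in all 3 lists, the reader YTHDF2 in control alone, and METTL3, the catalytic subunit of the methyltransferase, in siRNA 1 alone. The METTL3 peak with siRNA 1 covered 200 bases and was weak, at score percentile 49.6 and a −log10 FDR of 2.17. The gene's strongest peaks with siRNA 2 and in control, annotated with 5′ UTR and coding sequence only, lay elsewhere in the gene. They too were weak, with a −log10 FDR of 2.04 with siRNA 2 and 1.67 in control, so little can be read from their difference.

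A further list held 57 chosen genes whose coding region lies in 1 exon, and not every such gene. Of its 38 genes with a peak, 17 (44.7%) had a dual-annotated one, beside 15.2% of all genes with a peak. It was in all 3 lists for 13 of these genes, where 42.1% of the 1650 genes had one in all 3. The median score percentile of their control peaks was 84.7, beside 69.9 for all genes with such a control peak. FOXL2 and FOXC1, forkhead transcription factors, kept 2400 bases and 2800 bases in each list, and CEBPB, a leucine zipper factor, kept 1956 bases over 92.8% of its gene. JUN, a subunit of the AP-1 transcription factor, was the 1 gene of this group dual-annotated with each siRNA but not in control. Its peaks shared their 3′ end at base 58781528 of chromosome 1, minus strand, and covered 2400 bases with siRNA 1 and 2400 bases with siRNA 2, against 800 bases in control. RNF113A was the 1 gene of the group with such a peak in control alone, and was named after its values were seen.

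Immediate-early genes, which are induced by growth signals within minutes, had 10 of 42, of which 6 were in all 3 lists. BTG2, an antiproliferative adaptor of deadenylases, kept 1200 bases in each list, and JUNB kept 1800 bases over 98.4% of its gene. The peak of IER3 covered 800 bases with siRNA 1 and 1200 bases with siRNA 2, against 956 bases in control, and was dual-annotated only with siRNA 2. The peaks of EGR2 and DUSP6 were dual-annotated with siRNA 1 and in control, and with siRNA 2 the EGR2 peak lacked the 5′ UTR term and the DUSP6 peak the stop codon term. That DUSP6 peak covered 1400 bases, against 1200 bases with siRNA 1 and 1600 bases in control. It reached as far as the siRNA 1 peak on both sides, so the missing term was not a missing end there.

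A list of cell-cycle inhibitors, GADD45 and BTG/TOB proteins and related genes had 9 of 19 (47.4%), beside 15.2% of all genes with a peak. Of the 9, 5 were in all 3 lists, 2 in both siRNA lists and not control, and none in control alone. The 2 were GADD45GIP1 and SERTAD2, so neither was a kinase inhibitor, GADD45 or BTG/TOB protein. Of the 5 in all 3 lists, CDKN1B covered 1400 bases with siRNA 1 and 800 bases with siRNA 2, against 1000 bases in control. CDKN2C covered 600 bases with siRNA 1 and 2200 bases with siRNA 2, against 2400 bases in control. The apoptosis regulators of the BCL2 family had 6 of 15. MCL1, a short-lived survival protein, covered 2000 bases with siRNA 1 and 2000 bases with siRNA 2, against 2200 bases in control. PMAIP1, a pro-apoptotic BH3-only protein, covered 1200 bases with siRNA 1, 600 bases without the 5′ UTR with siRNA 2 and 1600 bases in control.

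Feedback inhibitors of signalling (the SOCS, Sprouty and DUSP families and others) had 12 of 37, with 4 in all 3 lists. SMAD6, which restrains BMP signalling, had the same 2200 bases from 66702228 to 66704427 on chromosome 15 in each list, at the start of a gene of 80614 bases. SOCS3, an inhibitor of cytokine receptors, was dual-annotated only with siRNA 1, where 2000 bases were covered. Its peak covered 1800 bases with siRNA 2, against 1600 bases in control, and the 3 peaks shared their 3′ end.

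Small GTPases had 14 of 57, with 9 in all 3 lists, 2 in both siRNA lists and not control, and 1 in control alone. ARF6, a regulator of membrane traffic at the cell surface, covered 1400 bases with siRNA 1 and 1000 bases with siRNA 2, against 1000 bases in control. DIRAS1 covered 2000 bases with siRNA 1 and 2000 bases with siRNA 2, against 1600 bases without the 5′ UTR in control. The ID, HES and other basic helix-loop-helix factors had 6 of 16, and none of the 6 was in all 3 lists. HEY1, a target of Notch, covered 800 bases without the stop codon with siRNA 1 and 1000 dual-annotated bases with siRNA 2, against 1000 in control. The SOX, FOX, KLF and homeobox factors had 9 of 43, with 7 in all 3 lists, and the leucine zipper factors 4 of 24.

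Genes of short, abundant proteins gave mixed counts. Ribosomal proteins had 5 of 23, respiratory chain and ATP synthase subunits 6 of 32, replacement histones and HMG proteins 4 of 14, and ferritin, thymosin, profilin and cytoskeletal proteins 10 of 40. H2AX, a histone variant that marks DNA breaks, covered its whole gene at 1600 bases with siRNA 1 and 1000 bases of 3′ UTR with siRNA 2, against 1000 bases of 3′ UTR in control. COX6A1, a subunit of cytochrome c oxidase, kept the same 400 bases in each list. None of the 17 replication-dependent histone genes with a peak had a dual-annotated one, a set too small to set apart from the 15.2% of all genes. Secreted growth factors and cytokines had 2 of 31, claudins and other small membrane proteins 3 of 26, ubiquitin-like proteins 2 of 10, and heat shock proteins and small chaperones 7 of 26.

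Across chromosomes the dual-annotated share of peaks was lowest on chromosome 21, at 3.82% (1.42 to 8.13) with siRNA 1 and 3.18% (1.04 to 7.28) with siRNA 2, against 3.41% (1.26 to 7.27) in control. On chromosome 14 it was 12.8% (9.62 to 16.5) with siRNA 1 and 9.89% (7.28 to 13.0) with siRNA 2, against 11.4% (8.85 to 14.4) in control. These chromosomes were picked after their values were seen.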

How the data were processed

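The authors deposited 1 merged peak list per condition, marked r1-r2, while the labels name a single input and m6A-IP sample for each. Per the submitters' processing notes reads were handled with HISAT2 on hg38, with the peak caller, merging rule and annotation release not given in the sources used here. Per the file headers each peak has blocks, a score (a whole number of undefined meaning, so ranked only within a list), a fold enrichment (ratio) and a −log10 FDR, all the authors' deposited values, and every FDR is under 0.05. Covered widths are multiples of 200 bases in 94.8%, 93.9% and 92.7% of dual-annotated peaks (siRNA 1, siRNA 2, control).

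Block starts were raised by 1, and peaks counted as shared from 1 common base on, strand respected. Symbols of members were matched to RefSeq (GRCh38.p14): 1476 were current, 122 were updated and 50 were kept. Peaks within 2000 bases of the matched gene counted as placed, 94.6%, 94.0% and 94.4%. No test was run, and shares have exact binomial intervals (Python 3.11.15, scipy 1.17.1). The overlap code was tested on 3000 simulated peaks, all called as made.

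The members and the 19 gene lists were chosen with earlier results of these data known. Named genes were YTHDF2, the 10 strongest in all 3 lists by mean score percentile, the 8 strongest in both siRNA lists and not control, the 8 strongest in control alone, the 8 widest, the 8 narrowest, and up to 6 of each gene list in alphabetical order, of which a part is described. For a named gene with several peaks in a list, 1 is described, a dual-annotated peak or else the highest-scoring one. Coding and protein lengths, the genes chosen by protein length and DRACH motifs within peaks were planned and not analysed here. Alternatives were stricter FDR, score and fold limits, equal list lengths, other overlap rules, other annotation rules and 1 peak per gene.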

Additional observations from a re-analysis of the deposited data

How the results depend on the processing

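Dual-annotated shares rise when weak peaks are removed. With an FDR under 0.01 they were 9.52% with siRNA 1, 9.28% with siRNA 2 and 9.36% in control. In the top 50% by score they were 11.7%, 11.9% and 12.0%, and in the top 50% by fold 11.8%, 12.2% and 12.5%, in the same order. With the same number of top-scoring peaks, 13147, from each list they were 8.55%, 8.38% and 9.42%. Both siRNA shares, above control in the whole lists, were below it here and in the top 50% by either measure, and with siRNA 2 also at the FDR limit. When 50% or more of both peaks had to be common, the overlap of dual-annotated peaks was 76.0% for siRNA 1 in control, 87.3% for siRNA 2 in control, 71.5% for control in siRNA 1, 80.5% for control in siRNA 2, 84.9% for siRNA 1 in siRNA 2 and 86.3% for siRNA 2 in siRNA 1. The shares meeting a dual-annotated peak were then 63.3%, 73.6%, 56.3%, 64.3%, 72.7% and 73.8% in that order. Among the top 50% by score, the overlap was 89.2% for siRNA 1 in control, 77.4% for control in siRNA 1, 83.2% for control in siRNA 2, 92.6% for siRNA 1 in siRNA 2 and 88.9% for siRNA 2 in siRNA 1. The share for siRNA 1 in control, 84.6% against 85.6% for control in siRNA 1 in the main setting, was the higher one under both of these rules. Of 88 alternative values, 57 stayed within their interval or within 1.5 times the count, and 31 moved. Counts of genes dual-annotated with each siRNA but not in control, and in control alone, were 132 and 295 with an FDR under 0.01, 90 and 246 in the top 50% by score, and 94 and 271 by fold. Those in siRNA 1 alone were 114 by score and 124 by fold. The limits on score and fold for these counts were chosen after seeing the data. No paired analysis was possible because each condition has 1 list. Alternatives that need coding length were not run, and leaving out a replicate was not possible. The depth behind the peaks is unknown, and its part in a missing peak or end was not tested.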
